A study of Mus musculus with 29 samples.

Results

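A set of 6 genes was followed across all 29 libraries of the series: the small structured RNAs Rn7sk, Rn7s1 and Rn7s2, the nuclear long noncoding RNAs Malat1 and Neat1, and Lars2. They were taken by symbol, 6 of 55401 gene rows, and were chosen by their values in the genotype comparisons, several having shifted strongly between genotypes. Their differences between genotypes are therefore described here without a test. Lars2 is protein-coding in GENCODE M21, so the 6 are not all noncoding. The level of each was set beside the share of counts on CT010467.1, a row annotated as ribosomal RNA on chromosome 17 (mm10, chr17:39846353-39848827, minus strand).

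The study sequenced about 1000 peribiliary mesenchymal cells per mouse, sorted from the common bile duct. Gli1:CreERT2 mice gave 3 libraries on day 4 after bile duct ligation (BDL) and 3 from uninjured ducts, with no sham-operated group among these libraries. Pdgfra:CreERT2 mice gave 3 Ctnnb1FF, 4 Gli2FFGli3FF, 2 Gli2FF, 2 Gli3FF, 4 SmoFF and 3 SmoM2 libraries, and 5 wild type libraries as their common control. Every mouse also carried Rosa26:lox-STOP-lox-tdTomato, so wild type here still holds the Cre driver and the reporter. FF is read as loxP-flanked alleles and SmoM2 as an active form of Smo, by the convention of mouse genetics. Cre acts in cells that express its driver at the time of induction, and no source used here gives ages or the induction scheme. Wild type replicate 5 carries a description that also names SmoFF, against its title and genotype, and was kept as wild type.

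7SK, the product of Rn7sk, is a small RNA made by RNA polymerase III that holds the elongation factor P-TEFb in an inactive complex with Hexim and Larp7 proteins. 7SL, the product of Rn7s1 and Rn7s2, is the RNA scaffold of the signal recognition particle, which brings ribosomes with secretory proteins to the endoplasmic reticulum. Malat1 is a long RNA of nuclear speckles, and Neat1 is the scaffold of paraspeckles, both made by RNA polymerase II. Lars2 encodes the leucyl-tRNA synthetase of mitochondria.

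The sequences of the small RNAs, of which that of Rn7sk is printed, decide how far their counts can be told apart. Rn7sk is a transcript of 331 bases on chromosome 9, and its last 300 bases (chr9:78175303-78175602, mm10, minus strand) are shown here. Its first 241 bases are 100% identical to the copy Gm24447, and capitals mark the 90 bases outside that stretch. Rn7s1 (chr12:69159295-69159594, plus strand) and Rn7s2 (chr12:69361182-69361481, minus strand) lie 201587 bases apart, each with 300 bases, and all 300 are identical. Their closest other copy is Rn7s6 (98.6% identity over 214 bases).
Rn7sk: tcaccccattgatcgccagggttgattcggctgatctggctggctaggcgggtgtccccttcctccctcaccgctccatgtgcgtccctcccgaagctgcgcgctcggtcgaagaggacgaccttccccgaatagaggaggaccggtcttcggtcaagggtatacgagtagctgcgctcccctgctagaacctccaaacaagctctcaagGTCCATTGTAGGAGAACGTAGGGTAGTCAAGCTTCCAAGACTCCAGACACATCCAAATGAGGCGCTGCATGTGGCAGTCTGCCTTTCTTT
Because Rn7s1 and Rn7s2 hold the same letters, the split of 7SL counts between them rests on how reads were assigned. No source used here says how reads that match both were counted, so their joint level depends on that as well. In addition, 11 further copies of 7SK took 14.9 to 38.6% of the counts of that family per library (median 32.1%), and 6 further copies of 7SL took 3.18 to 18.6% (median 10.97%). Malat1 (chr19:5795690-5802672, minus strand) and Neat1 (chr19:5824708-5845478, minus strand) are neighbours on chromosome 19, and their longest transcripts are single exons of 6983 and 20771 bases. Lars2 (chr9:123366927-123462666, plus strand) has 21 exons in a main transcript of 3894 bases. Within that transcript 72 bases match Gm15564 at 98.6% identity.

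Total counts were 15021796 to 38301189 per library, and the share on CT010467.1 ranged from 2.37 to 50.03%. Levels are therefore given as CPM, read counts scaled to a common library total, with CT010467.1 left out of that total. The share averaged 2.87 ± 0.866% in BDL and 3.37 ± 0.379% in uninjured libraries (SD, n = 3 each). In the Pdgfra libraries it averaged 18.8 ± 9.26% in SmoFF, 17.3 ± 5.32% in SmoM2, 30.7 ± 3.28% in Ctnnb1FF, 11.03 ± 3.49% in Gli2FF, 31.8 ± 10.3% in Gli3FF and 44.6 ± 5.89% in Gli2FFGli3FF, against 20.6 ± 6.06% in wild type (SD, n as above). Detected genes numbered 15892 to 17726 in Ctnnb1FF and 17508 to 20055 in Gli2FFGli3FF, against 21127 to 24483 in wild type. They numbered 17544 and 22143 in Gli3FF, 25279 and 28028 in Gli2FF, 20583 to 22957 in SmoFF and 21965 to 28796 in SmoM2. In the Gli1 libraries they numbered 17121 to 20753 in uninjured ducts and 23482 to 24964 after ligation. The part of these gaps and of the share in the values of the 6 genes was not tested. The summed fibroblast markers reached 28288 to 73617 CPM in all 29 libraries, with Dcn at 3587 CPM or more. Of the other marker lists, the summed cholangiocyte markers lay at 10.4 to 511 CPM per library, the mesothelial at 0.443 to 869 CPM (highest in a SmoFF library), the immune at 5.86 to 413 CPM (highest in a Gli2FFGli3FF library) and the endothelial at 0 to 28.5 CPM. Smooth muscle and pericyte markers summed to 83.8 to 261 CPM in Ctnnb1FF and 206 to 437 CPM in Gli2FFGli3FF, against 75.6 to 113 CPM in wild type. They summed to 376 to 449 CPM in SmoM2, 210 to 283 CPM in Gli3FF, 121 to 283 CPM in Gli2FF and 50.4 to 163 CPM in SmoFF. The part of these cells in the values of the 6 genes was not tested. Smo was at 10.4 to 13.2 CPM in SmoFF, against 31.7 to 51.3 CPM in wild type. Ctnnb1 was at 42.0 to 53.9 CPM in Ctnnb1FF, against 78.1 to 88.8 CPM in wild type, and at 43.7 and 62.9 CPM in Gli3FF, which overlapped Ctnnb1FF. Gli2 was at 10.9 and 20.8 CPM in Gli2FF and 1.85 to 7.46 CPM in Gli2FFGli3FF, against 18.6 to 29.3 CPM in wild type. The higher Gli2FF value lay within the wild type range. Gli3 was at 16.7 and 17.04 CPM in Gli3FF and 3.12 to 9.07 CPM in Gli2FFGli3FF, against 43.1 to 60.7 CPM in wild type. In Ctnnb1FF, Gli2 was at 6.14 to 14.5 CPM and Gli3 at 9.24 to 17.5 CPM, also below wild type. The deposited counts do not show whether these reads lie in deleted exons.

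Rn7sk had its highest levels in the beta-catenin (Ctnnb1) and double Gli lines. It stood at 1844, 1766 and 3035 CPM in the Ctnnb1FF libraries and at 903, 1067, 898 and 961 CPM in the Gli2FFGli3FF libraries, against 31.8, 39.0, 39.1, 68.3 and 65.9 CPM in wild type libraries 1 to 5. No library of either line overlapped wild type, and every Ctnnb1FF library lay above every Gli2FFGli3FF library. The ratio of means to wild type was 45.4 in Ctnnb1FF and 19.6 in Gli2FFGli3FF. On all counts, CT010467.1 included, these ratios were 38.5 and 13.5.

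The Gli2FF line showed a smaller difference in 7SK. Rn7sk stood at 276 and 149.9 CPM in Gli2FF, 4.36 times the wild type mean, and both libraries lay above all wild type libraries. The other lines overlapped wild type, with 63.3, 98.3, 59.7 and 64.5 CPM in SmoFF, 55.8, 70.0 and 36.3 CPM in SmoM2 and 71.2 and 39.9 CPM in Gli3FF. In order of means, Ctnnb1FF (2215 CPM), Gli2FFGli3FF (957 CPM) and Gli2FF (213 CPM) were each apart from the next group, and SmoFF, Gli3FF, SmoM2 and wild type overlapped in turn from 71.5 to 48.8 CPM. The Gli1 libraries came last and apart from wild type, with means of 6.07 CPM after ligation and 12.6 CPM in uninjured ducts. The Gli1 and Pdgfra libraries differ in the Cre driver, so the driver and any other difference between these sets cannot be told apart.

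The 7SL genes were likewise high in Ctnnb1FF and Gli2FFGli3FF, but low in both single Gli lines. Rn7s1 stood at 881, 943 and 1849 CPM in Ctnnb1FF and at 721, 1326, 1868 and 1225 CPM in Gli2FFGli3FF, against 81.6, 88.5, 81.7, 177 and 107 CPM in wild type. All 7 libraries of these lines lay above all wild type libraries, with ratios of means of 11.4 and 12.0, and the lines overlapped each other. In Gli2FF Rn7s1 stood at 34.3 and 24.9 CPM, and in Gli3FF at 16.1 and 7.50 CPM. These libraries lay below all wild type libraries, the wild type mean being 3.62 times that of Gli2FF and 9.07 times that of Gli3FF.

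The twin gene Rn7s2 gave the same picture at lower values, which is no separate observation, since its sequence is identical to that of Rn7s1. It stood at 599, 626 and 1300.0 CPM in Ctnnb1FF and at 384, 785, 983 and 708 CPM in Gli2FFGli3FF, against 37.4, 52.7, 44.0, 56.7 and 53.0 CPM in wild type. It stood at 16.6 and 10.97 CPM in Gli2FF and at 6.78 and 2.90 CPM in Gli3FF, again below all wild type libraries. The wild type mean was 3.54 times that of Gli2FF and 10.1 times that of Gli3FF. The Smo lines differed from wild type by less. Rn7s1 stood at 61.4, 78.6, 40.7 and 27.8 CPM in SmoFF, all below the lowest wild type value of 81.6 CPM, and at 77.7, 70.4 and 83.2 CPM in SmoM2, which overlapped wild type. Rn7s2 overlapped wild type in both, at 14.1 to 39.3 CPM in SmoFF and 39.5 to 45.9 CPM in SmoM2. The contrast between Rn7s1 and Rn7s2 in SmoFF rests on how reads were assigned between identical sequences.

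The share of the 7SL pair counted on Rn7s2 moved by far less than the level, which moved by an order of magnitude. It averaged 40.6 ± 0.691% in Ctnnb1FF (SD, n = 3) and 35.8 ± 1.35% in Gli2FFGli3FF (SD, n = 4), against 32.2 ± 4.98% in wild type (SD, n = 5). The Ctnnb1FF libraries, at 39.9 to 41.3%, lay wholly above the wild type range of 24.2 to 37.3%. The lowest share of the 29 libraries was that of wild type replicate 4, at 24.2% (95% Wilson interval 23.2 to 25.4%, counting error only), and the highest was 45.7%. The balance of 7SL to 7SK differed more between lines. Summed Rn7s1 and Rn7s2 counts per Rn7sk count averaged 0.909 ± 0.119 in Ctnnb1FF (SD, n = 3), 0.212 ± 0.0384 in Gli2FF (SD, n = 2), 0.291 ± 0.0433 in Gli3FF (SD, n = 2) and 2.10 ± 0.806 in Gli2FFGli3FF (SD, n = 4), against 3.29 ± 0.516 in wild type (SD, n = 5). They averaged 1.11 ± 0.349 in SmoFF (SD, n = 4), wholly below the wild type range of 2.44 to 3.74, and 2.41 ± 1.03 in SmoM2 (SD, n = 3), which overlapped it. These ratios of counts were not tested.

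**Figure D1:**
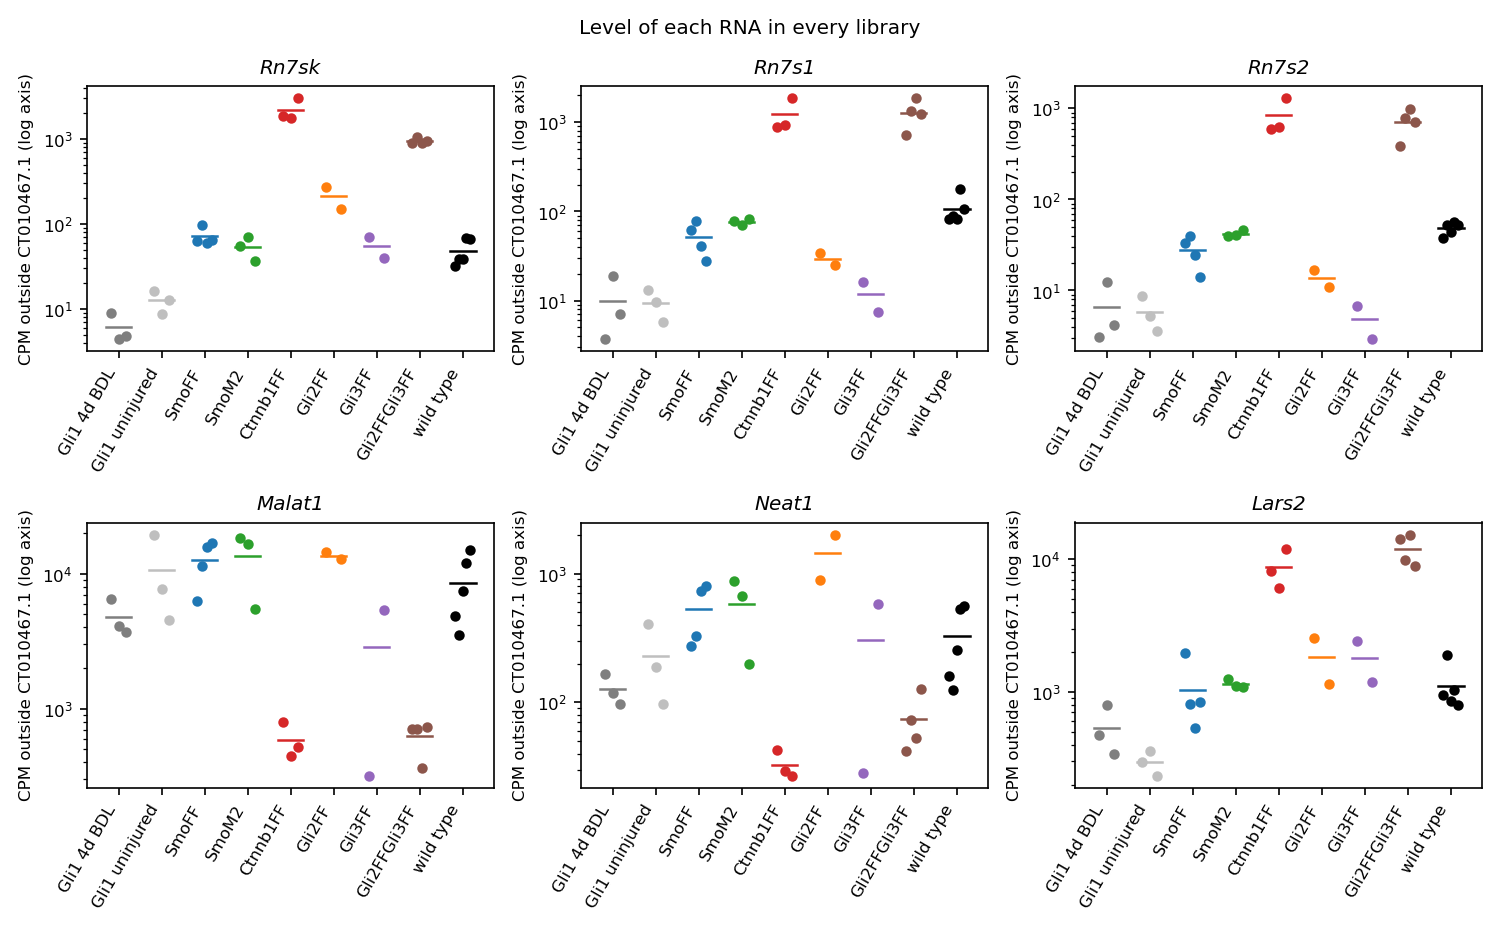
Level of each RNA in CPM of counts outside CT010467.1 (log axis) in each library (points) of the 9 groups, with lines at the arithmetic means. The Ctnnb1FF and Gli2FFGli3FF points lie above all wild type points for Rn7sk, Rn7s1, Rn7s2 and Lars2 and below them for Malat1, while the Neat1 level of 1 Gli2FFGli3FF library (128 CPM) lies within the wild type range.

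Malat1, the speckle RNA, ran the opposite way in the lines with the highest counted levels of 7SK and 7SL. It stood at 796, 444 and 516 CPM in Ctnnb1FF and at 707, 704, 367 and 732 CPM in Gli2FFGli3FF, against 4873, 3523, 7455, 12039.9 and 14932 CPM in wild type. No library overlapped, and the wild type mean was 14.6 times that of Ctnnb1FF and 13.7 times that of Gli2FFGli3FF. Malat1 stood at 318 and 5369.8 CPM in the Gli3FF pair, so that replicate 1 lay with the Ctnnb1FF libraries and replicate 2 within wild type. Gli2FF, at 14543 and 12753 CPM, SmoFF, at 6299.8 to 16834 CPM, and SmoM2, at 5438 to 18474 CPM, overlapped wild type.

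Neat1, the paraspeckle RNA, was lower than wild type in Ctnnb1FF and higher in Gli2FF. It stood at 42.8, 29.1 and 26.9 CPM in Ctnnb1FF and at 42.1, 72.4, 52.9 and 128 CPM in Gli2FFGli3FF, against 162, 125, 257, 535 and 556 CPM in wild type. Ctnnb1FF lay wholly below wild type and Gli2FFGli3FF overlapped it in 1 library, the wild type mean being 9.93 and 4.43 times theirs. In Gli2FF Neat1 stood at 889.8 and 2007 CPM, above all wild type libraries, and its mean was 4.43 times that of wild type. The Gli3FF pair again lay far apart, at 28.2 and 583 CPM. SmoFF, at 276 to 796 CPM, and SmoM2, at 199.9 to 882 CPM, overlapped wild type.

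Malat1 and Neat1 kept different proportions in the lines. Malat1 counts per Neat1 count averaged 17.7 ± 2.13 in Ctnnb1FF (SD, n = 3), 11.3 ± 7.06 in Gli2FF (SD, n = 2), 10.2 ± 1.45 in Gli3FF (SD, n = 2) and 9.79 ± 4.95 in Gli2FFGli3FF (SD, n = 4), against 27.3 ± 2.96 in wild type (SD, n = 5). SmoFF and SmoM2 gave 25.0 ± 6.49 (SD, n = 4) and 24.3 ± 3.16 (SD, n = 3). Per kilobase of longest transcript, the wild type level of Malat1 (1227 CPM per kb) was far above that of Neat1 (15.7 CPM per kb), and those of Rn7sk, Rn7s1, Rn7s2 and Lars2 were 147, 357, 163 and 284 CPM per kb. In Ctnnb1FF the order per kilobase was Rn7sk (6692), Rn7s1 (4080), Rn7s2 (2806), Lars2 (2243), Malat1 (83.9) and Neat1 (1.59 CPM per kb).

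Lars2 was high in the same pair of lines as the small RNAs. It stood at 8156, 6083 and 11958 CPM in Ctnnb1FF and at 14146, 9816, 15371 and 8913 CPM in Gli2FFGli3FF, against 956, 1888, 849, 1039 and 795 CPM in wild type. All 7 libraries lay above all wild type libraries, and the ratios of means were 7.90 and 10.9. The other lines overlapped wild type, with 2531 and 1153 CPM in Gli2FF, 2408 and 1192 CPM in Gli3FF, 532 to 1974 CPM in SmoFF and 1085 to 1247 CPM in SmoM2. Relative to the counts on CT010467.1, Lars2 reached 1.92 ± 0.360% in Ctnnb1FF (SD, n = 3), 1.43 ± 0.276% in Gli2FF (SD, n = 2), 0.371 ± 0.00562% in Gli3FF (SD, n = 2) and 1.46 ± 0.0515% in Gli2FFGli3FF (SD, n = 4), against 0.428 ± 0.0975% in wild type (SD, n = 5).

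Gm15564, which shares the stretch of 72 bases with Lars2 and is annotated as antisense, rose with Lars2 in both lines. It stood at 532, 424 and 719.9 CPM in Ctnnb1FF and 779, 589, 944 and 583 CPM in Gli2FFGli3FF, against 152, 290.1, 147, 121 and 108 CPM in wild type. The edgeR quasi-likelihood test gave log2 differences of 2.10 (SE 0.36, Benjamini-Hochberg adjusted p = 0.00021) and 2.41 (SE 0.34, adjusted p = 4.0e-05). The call in Gli2FFGli3FF was lost with the CT010467.1 share as a covariate. AA474408, which matches 97 bases of Lars2 at 94.8% identity and was looked up only after that match was seen, averaged 24.6 ± 6.80 CPM in Ctnnb1FF (SD, n = 3) and 9.40 ± 5.30 CPM in Gli2FFGli3FF (SD, n = 4), against 36.5 ± 35.9 CPM in wild type (SD, n = 5), and overlapped wild type in both. How many Lars2 reads fall on the shared stretches was not tested, since the deposited counts are per gene.

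In the edgeR fit of all 23 Pdgfra libraries the log2 differences from wild type repeat these levels, and they carry no test because such differences chose the members. All 6 members were above the filter on low counts in every comparison. In Ctnnb1FF they were 5.87 (SE 0.31) for Rn7sk, 3.88 (0.37) for Rn7s1, 4.47 (0.36) for Rn7s2, -3.49 (0.63) for Malat1, -2.93 (0.71) for Neat1 and 3.32 (0.39) for Lars2, while the median over all genes tested was -0.61. In Gli2FFGli3FF they were 4.58 (SE 0.29), 3.88 (0.36), 4.16 (0.35), -3.48 (0.56), -1.85 (0.60) and 3.72 (0.39) in the same order of genes, with a median of -0.35 over all genes. In Gli2FF the largest were 1.95 (SE 0.30) for Rn7sk, -2.03 (0.47) for Rn7s1, -2.01 (0.45) for Rn7s2 and 2.01 (0.66) for Neat1. In Gli3FF they were -2.97 (SE 0.50) for Rn7s1 and -3.12 (0.49) for Rn7s2, and without replicate 2 the Malat1 difference was -4.44, against -1.51 (SE 0.66) with both libraries. The Smo lines stayed between -1.13 (SE 0.34, Rn7s1 in SmoFF) and 0.67 (SE 0.61, Neat1 in SmoM2).

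Counted by library ranges, 4 of the 6 lay wholly above and 2 wholly below wild type in Ctnnb1FF, where 6.66% of the 24383 genes tested lay above and 21.2% below. Rn7s1 and Rn7s2 are counted separately here, though identical in sequence. In Gli2FFGli3FF 4 were above and 1 below (5.6 and 15.5% of all genes). In Gli2FF 2 were above and 2 below (25 and 10.6% of all genes), and in Gli3FF 0 were above and 2 below (8.61 and 15.1%). In SmoFF 0 were above and 1 below (2.7 and 2.11%), and in SmoM2 0 were outside the wild type range (5.77 and 2.67%). By edgeR at an adjusted p under 0.05, 19.9% of all genes were called in Ctnnb1FF, 17.2% in Gli2FFGli3FF, 5.84% in Gli2FF, 4.45% in Gli3FF, 1.55% in SmoFF and 0.205% in SmoM2. The rule rests on these comparisons, so nothing further is read from the counts. All 6 comparisons share the same 5 wild type libraries.

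**Figure D2:**
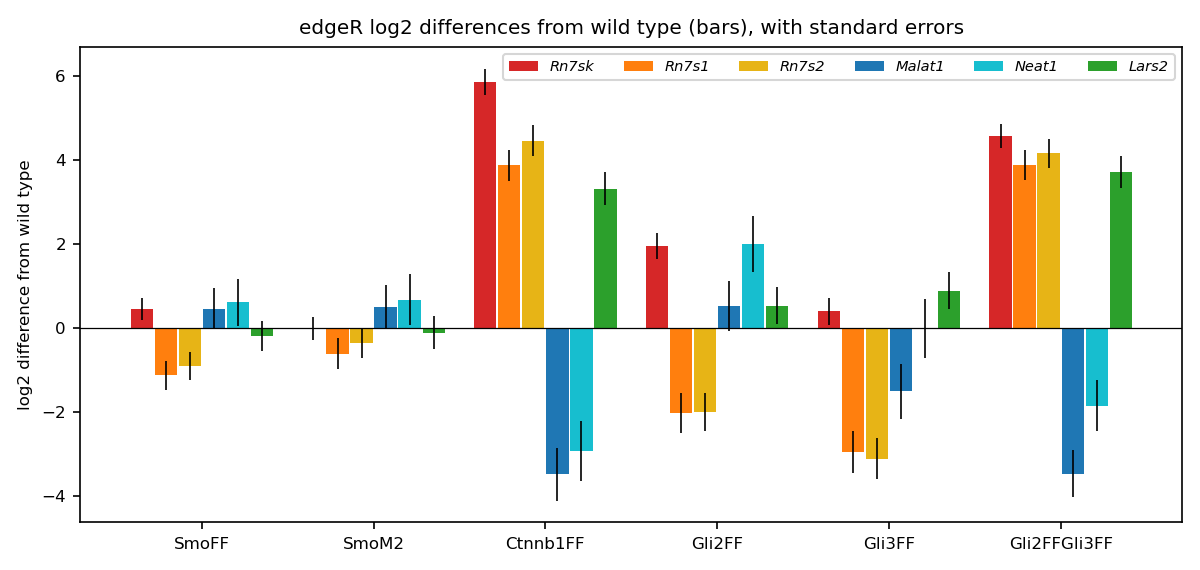
Log2 difference from wild type (bars) of each RNA in the 6 Pdgfra lines, from edgeR, with standard errors as whiskers. The Ctnnb1FF and Gli2FFGli3FF bars are positive for Rn7sk, Rn7s1, Rn7s2 and Lars2 and negative for Malat1 and Neat1, whereas in Gli2FF and Gli3FF the 7SL genes are negative.

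Ligation was not used to choose the 6 RNAs, and it was tested in the 6 Gli1 libraries alone. Of the 6, 0 were called by edgeR and 1 by DESeq2, which called 13.6% and 20.7% of the 17150 genes tested. The groups overlapped for all 6 genes, as they did for 62.6% of genes tested. Malat1 stood at 6509.8, 4124 and 3721 CPM after ligation, against 19514, 7736 and 4526 CPM in uninjured ducts, and its spread lay mostly in the uninjured group. Its log2 difference was -1.11 (SE 0.51, adjusted p = 0.235, edgeR), while DESeq2 called it (log2 -1.15, adjusted p = 0.0466). Without uninjured replicate 1, the library with the most Malat1, the edgeR difference was -0.40. Lars2 stood at 476, 798 and 339.9 CPM after ligation, against 297, 357 and 233 CPM in uninjured ducts (log2 0.86, SE 0.34, adjusted p = 0.171, edgeR). Its unadjusted p in that edgeR fit was 0.0428, and those of the other 5 were above 0.05.

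The other RNAs were low and scattered in these libraries. Rn7sk stood at 9.04, 4.40 and 4.77 CPM after ligation, against 16.3, 8.86 and 12.7 CPM in uninjured ducts (log2 -1.04, SE 0.51, adjusted p = 0.258, edgeR). Neat1 stood at 165, 119 and 97.2 CPM after ligation, against 409, 187 and 97.2 CPM in uninjured ducts (log2 -0.83, SE 0.49, adjusted p = 0.356, edgeR), and its difference was -0.20 without uninjured replicate 1. Rn7s1 had 3.68, 18.8 and 7.03 CPM after ligation, against 13.0003, 9.72 and 5.71 CPM in uninjured ducts. Its log2 difference of 0.056 (SE 0.69, adjusted p = 0.976, edgeR) rested on replicate 2 of the ligated group, without which it was -0.81. Rn7s2 had 3.10, 12.5 and 4.14 CPM after ligation, against 8.74, 5.29 and 3.55 CPM in uninjured ducts (log2 0.18, SE 0.72, adjusted p = 0.921, edgeR), and was at log2 -0.67 without that library. The counts behind the 7SL values were 59 to 436 per gene and library. Summed smooth muscle and pericyte markers were at 3983 to 4786 CPM after ligation, against 53.3 to 117 CPM in uninjured ducts, and their part in these values was not tested. Leaving out ligated replicate 1, 2 or 3 left 882, 420 or 377 genes called, against 2326 with all libraries. In such bulk libraries fewer cells of a type and less RNA per cell cannot be told apart.

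Within lines, 3 of the 6 RNAs moved with the ribosomal RNA share. This relation was computed for the 6 RNAs only, so whether other genes show it as often was not tested. Deviations of log2 CPM from the group mean were set against deviations of the CT010467.1 share over the 23 Pdgfra libraries, and the share was permuted within groups 100000 times, with p-values two-sided and adjusted over the 6 RNAs. Lars2 was higher in libraries with more of the share than their group (Pearson r = 0.798, permutation p = 0.00028, adjusted p = 0.00168, and Spearman rho = 0.734, permutation p = 0.00091). Malat1 was lower in such libraries (r = -0.707, permutation p = 0.00266, adjusted p = 0.00728, and rho = -0.689, permutation p = 0.00676). Neat1 was lower as well (r = -0.714, permutation p = 0.00364, adjusted p = 0.00728, and rho = -0.755, permutation p = 0.00295).

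For the small RNAs no relation to the share passed the test. Their r was -0.166 for Rn7sk (permutation p = 0.517), 0.0396 for Rn7s1 (permutation p = 0.891) and 0.132 for Rn7s2 (permutation p = 0.660), with rho of -0.201, 0.0553 and 0.177 (permutation p = 0.407, 0.848 and 0.552). Without the libraries farthest from the median share, Gli2FFGli3FF replicates 1 and 3, r was 0.776 for Lars2 (adjusted permutation p = 0.0109), -0.725 for Malat1 (0.0159) and -0.699 for Neat1 (0.0261). Wild type replicates 1 to 3 had shares of 21.5 to 29.4%, while replicates 4 and 5 had 16.6 and 13.4% and the most Malat1 of that group. With these as separate groups, r was 0.805 for Lars2 (adjusted permutation p = 0.00312), -0.655 for Malat1 (0.0443) and -0.662 for Neat1 (0.0443). Leaving out any single library kept r between 0.730 and 0.841 for Lars2, between -0.768 and -0.671 for Malat1 and between -0.835 and -0.667 for Neat1, each with an adjusted permutation p of at most 0.0233.

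**Figure D3:**
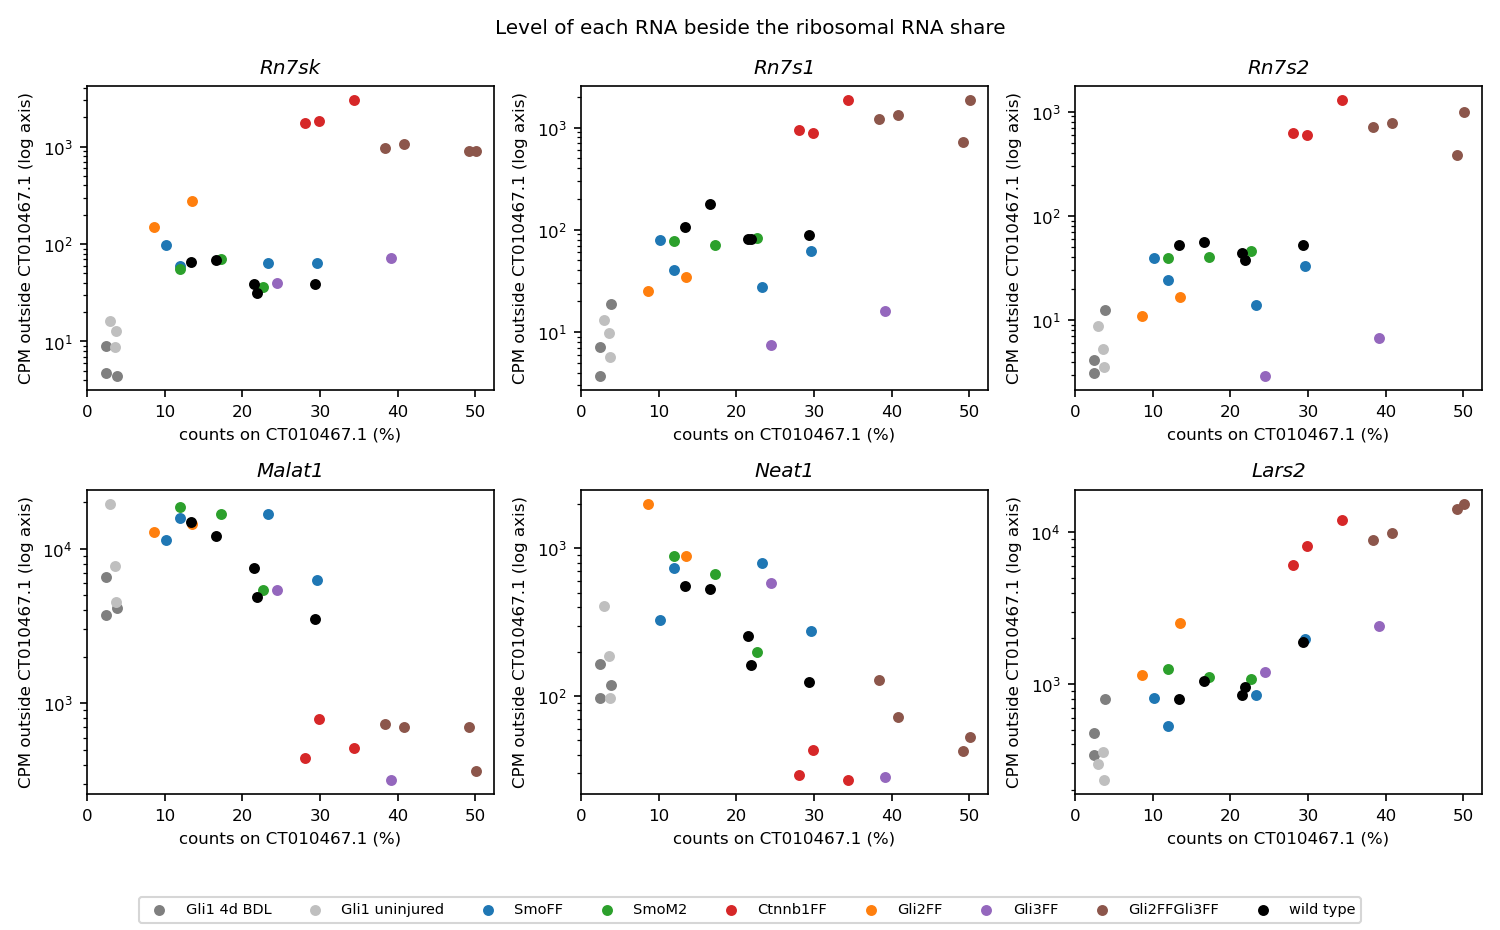
Level of each RNA (CPM of counts outside CT010467.1, log axis) against the share of counts on CT010467.1 in percent, 1 point per library, coloured by group. The Gli3FF libraries, at shares of 39.1 and 24.5%, lie below wild type for Rn7s1 and Rn7s2, whereas Ctnnb1FF at 28.0 to 34.4% lies above it.

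**Figure D4:**
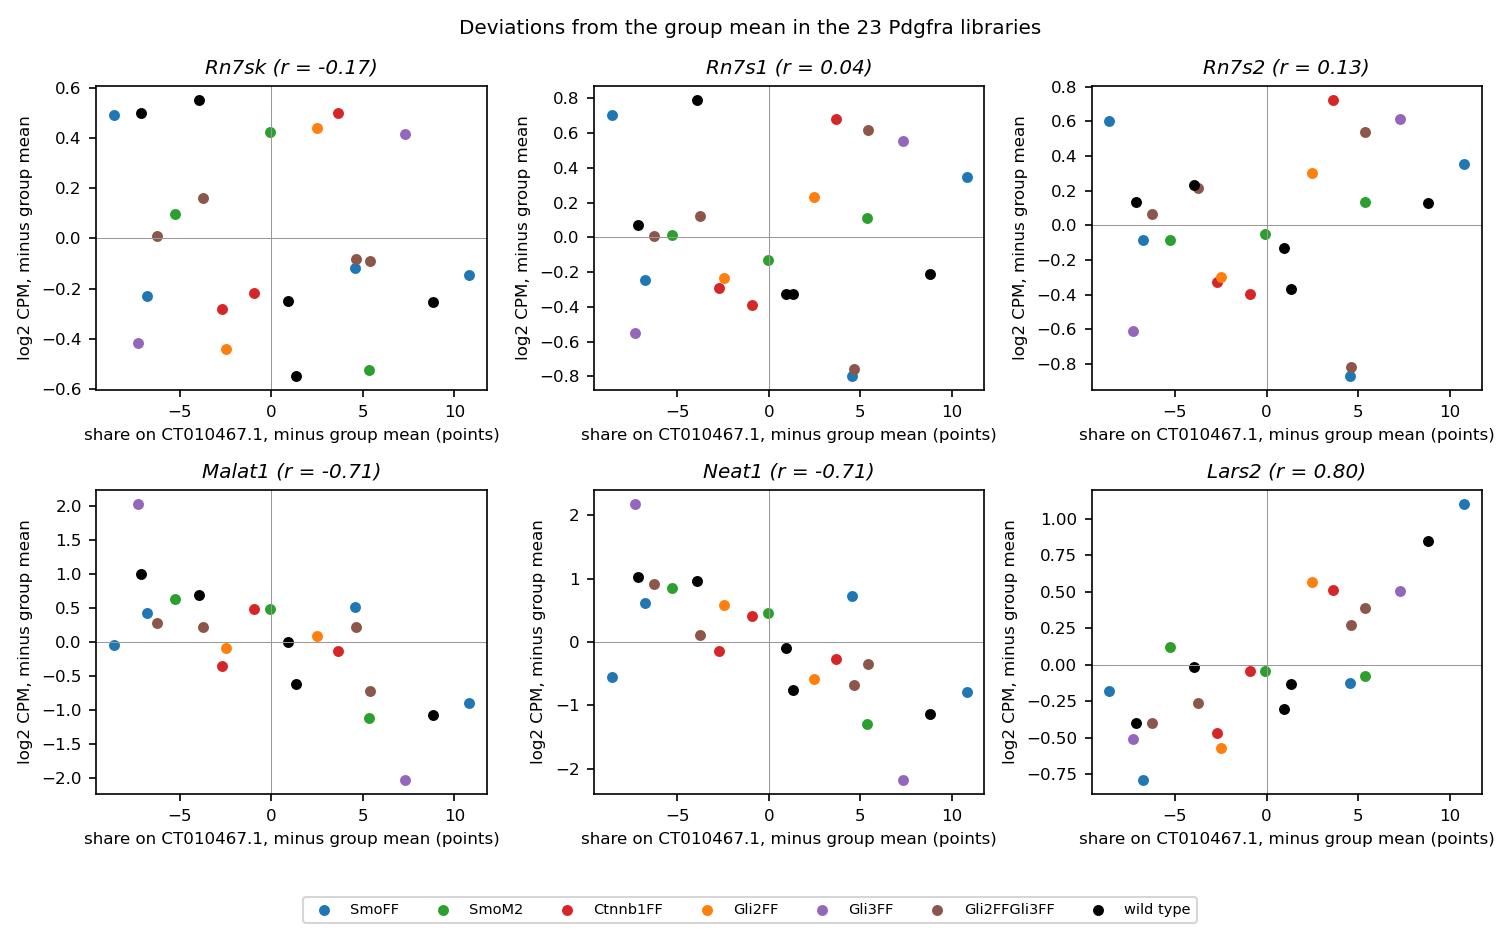
Deviation of log2 CPM from the group mean against deviation of the CT010467.1 share from the group mean, in percentage points, for the 23 Pdgfra libraries. The points slope down for Malat1 and Neat1 and up for Lars2, and show no slope that passed the test for Rn7sk, Rn7s1 and Rn7s2.

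Across groups the share and the small RNAs ran together only in part, and their relation over groups was not tested. Gli2FFGli3FF had the highest mean share (44.6%) and high Rn7sk and Rn7s1, with means of 957 and 1285 CPM. The Gli1 groups had the lowest mean shares (2.87 and 3.37%). They also had the lowest means of Rn7sk (6.07 and 12.6 CPM) and of Rn7s1 (9.83 and 9.48 CPM). Gli3FF had a mean share of 31.8%, close to the 30.7% of Ctnnb1FF, yet Rn7sk averaged 55.6 CPM in Gli3FF and 2215 CPM in Ctnnb1FF, and Rn7s1 11.8 and 1224 CPM. Gli2FF had the lowest mean share of the Pdgfra groups and an Rn7sk mean of 213 CPM, against 48.8 CPM in wild type. With the share as a covariate in the edgeR fit, the small RNAs kept large log2 differences, of 5.93 for Rn7sk, 3.74 for Rn7s1 and 4.25 for Rn7s2 in Ctnnb1FF and of 4.69, 3.59 and 3.70 in Gli2FFGli3FF. Under the same covariate Malat1 was at -2.37 in Ctnnb1FF and -1.05 in Gli2FFGli3FF, and Lars2 at 2.59 and 1.94. Neat1 was at -1.56 in Ctnnb1FF and changed sign in Gli2FFGli3FF, to 1.04. In Gli2FF the covariate gave 1.00 for Neat1 (2.01 without it) and -0.20 for Malat1 (0.52 without it), and in Gli3FF -0.014 for Lars2 (0.89 without it). Since the share itself differs between these groups, genotype and share cannot be told apart by that fit.

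The genes whose level was most like that of each RNA over the 23 Pdgfra libraries were in part its own copies. Among 9950 genes whose log2 CPM averaged 3 or more, Rn7sk was most like its copies Gm24447 (r = 0.988) and Gm26315 (r = 0.970), then Snrpe (r = 0.918), a core protein of spliceosomal RNPs. Rn7s1 and Rn7s2 were most like the 7SL copy Gm26461 (r = 0.953 and 0.954) and Mrpl52 (r = 0.911 and 0.914), a protein of the mitochondrial ribosome, then Gm26315 (r = 0.896 and 0.902). Malat1 was most like the imprinted long RNA Meg3 (r = 0.973), the splicing-associated gene Acin1 (r = 0.972) and Brd8 (r = 0.957), a bromodomain protein. Neat1 was most like Ogt (r = 0.969), the O-GlcNAc transferase, the imprinted RNA Kcnq1ot1 (r = 0.964) and the splicing regulator Rbm5 (r = 0.963). Lars2 was most like Gm15564 (r = 0.968), Snrpe (r = 0.944) and the pseudogene Rpl31-ps8 (r = 0.939). These are descriptions over libraries that share genotype, depth and the CT010467.1 share.

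The lists of companion genes were chosen with earlier results of these data known. The protein partners of 7SL and 7SK did not all follow their RNAs. Of all genes, 19.9% were called in Ctnnb1FF and 17.2% in Gli2FFGli3FF. Of 10 signal recognition particle genes tested, 6 rose and 1 fell in Ctnnb1FF, with a list median of log2 1.34 against -0.61 for all genes. Srp54b, which with its paralogs encodes the signal-binding subunit, was at 1.93 (SE 0.26, adjusted p = 2.1e-05, edgeR), Srp54c at 1.84 (SE 0.26, adjusted p = 2.5e-05, edgeR) and Srp19, an assembly subunit, at 1.58 (SE 0.22, adjusted p = 2.3e-05, edgeR). The Srp54 paralogs are near copies, so reads may be split among them. The count of 6 higher held with wild type 1 to 3 or 4 and 5 as the controls, while the fall of 1 gene was lost in both. In Gli2FFGli3FF 5 rose and 0 fell (median 0.54, against -0.35 for all genes), with Srp19 at 1.27 (SE 0.21, adjusted p = 0.00017, edgeR) and Srp14 at 0.93 (SE 0.23, adjusted p = 0.00854, edgeR). There 4 rose with wild type 1 to 3 as controls, 2 with 4 and 5, and 0 with the CT010467.1 share as a covariate.

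Of 7 genes of the 7SK complex, 0 were called by edgeR in Ctnnb1FF or in Gli2FFGli3FF, where their medians were -0.28 and 0.098. At an unadjusted p under 0.05 there was 1 in each, and DESeq2 called 0 in Ctnnb1FF and 1 in Gli2FFGli3FF. Ccnt1, the cyclin of P-TEFb, rose in Gli2FF (log2 1.03, SE 0.24, adjusted p = 0.0101, edgeR), a call that was lost with wild type 4 and 5 as the only controls. Of 30 genes of the RNA polymerase III machinery, which makes 7SK and 7SL, 5 rose and 1 fell in Ctnnb1FF, and 2 rose and 2 fell in Gli2FFGli3FF. These shares are near those of all genes called (19.9 and 17.2%), and the list medians were -0.29 and 0.13, against -0.61 and -0.35 for all genes. Snapc5, a subunit of the factor that binds small nuclear RNA promoters, was at 1.55 (SE 0.22, adjusted p = 3.2e-05, edgeR) in Ctnnb1FF. It fell in Gli2FF (log2 -1.19, SE 0.28, adjusted p = 0.0120, edgeR). In Gli2FFGli3FF 0 polymerase III genes rose and 1 fell with wild type 1 to 3 as controls, and 1 rose and 3 fell with 4 and 5. Maf1, the repressor of RNA polymerase III, fell in Ctnnb1FF, Gli2FF and Gli2FFGli3FF. Its log2 difference was -1.38 (SE 0.27, adjusted p = 0.00093, edgeR) in Ctnnb1FF, -1.48 (SE 0.32, adjusted p = 0.00704, edgeR) in Gli2FF and -1.11 (SE 0.24, adjusted p = 0.00267, edgeR) in Gli2FFGli3FF. The calls of Snapc5 and Maf1 in Gli2FF were lost with wild type 4 and 5 as the only controls, and that of Maf1 in Gli2FFGli3FF with the share as a covariate. After ligation Maf1 fell too (log2 -1.27, SE 0.15, adjusted p = 0.00595, edgeR).

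Of 11 other small structured RNAs tested, edgeR with all wild type libraries called 2 higher in Ctnnb1FF and 3 in Gli2FFGli3FF, and 0 lower. Of all genes, 19.9 and 17.2% were called there. DESeq2 called 1 lower in SmoFF, 1 in Gli2FF and 2 in Gli3FF. In these 3 lines it called 1105, 2660 and 2372 of 24383 genes. With wild type 1 to 3 as the only controls, edgeR called 1 lower in each of these lines. It called 1122, 1887 and 1075 of 24043 genes in them. The list median in Gli3FF was -1.07, against -0.22 for all genes. Of 22 such genes present, 11 passed the filter on low counts in the Pdgfra fit. Rny3, a Y RNA that binds Ro60, rose in Ctnnb1FF (log2 4.65, SE 0.55, adjusted p = 3.7e-06, edgeR) and in Gli2FFGli3FF (log2 3.31, SE 0.51, adjusted p = 8.6e-05, edgeR). Snord118, the U8 RNA of ribosomal RNA processing, rose in Ctnnb1FF (2.20, SE 0.46, adjusted p = 0.00175, edgeR), a call lost with wild type 4 and 5 as the only controls. In Gli2FFGli3FF Snord118 (1.25, SE 0.43, adjusted p = 0.0495, edgeR) and the vault RNA Vaultrc5 (1.73, SE 0.47, adjusted p = 0.0139, edgeR) were also called. Those 2 calls were lost with wild type 1 to 3 or with 4 and 5 as the only controls, where Rny3 was the 1 gene called.

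Ribosomal RNA of the mitochondria rose in both lines as well. mt-Rnr1, the small subunit RNA, stood at 6777, 5592 and 8826 CPM in Ctnnb1FF and 12170.3, 12198, 13482 and 8944 CPM in Gli2FFGli3FF, against 1555, 1593, 1493, 1629 and 1357 CPM in wild type. Its log2 differences were 2.56 (SE 0.29, adjusted p = 3.0e-06, edgeR) and 3.22 (SE 0.29, adjusted p = 1.3e-07, edgeR). mt-Rnr2, the large subunit RNA, was at log2 1.25 (SE 0.31, adjusted p = 0.00697, edgeR) and 1.68 (SE 0.30, adjusted p = 0.00039, edgeR). The mt-Rnr2 call in Ctnnb1FF was lost with wild type 1 to 3 as the only controls, and that in Gli2FFGli3FF with the share as a covariate. CT010467.1 itself rose in Gli2FFGli3FF (1.89, SE 0.37, adjusted p = 0.00114, edgeR) and missed the threshold in Ctnnb1FF (1.09, SE 0.39, adjusted p = 0.0549, edgeR). The other mitochondrial aminoacyl-tRNA synthetases did not share the high level of Lars2. Of 16 tested, 0 rose and 2 fell in Ctnnb1FF (median -0.85, against -0.61 for all genes). In Gli2FFGli3FF 0 rose and 1 fell (median -0.53, against -0.35 for all genes). Of all genes, 19.9 and 17.2% were called in these lines. DESeq2 and the unadjusted p also gave 0 higher synthetase genes in both. Hars2, for histidine, was at -3.02 (SE 0.44, adjusted p = 4.4e-05, edgeR) in Ctnnb1FF.

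Most genes for proteins of speckles and paraspeckles were not called. Of 14 speckle genes, 0 rose and 4 fell in Ctnnb1FF, where 19.9% of all genes were called, and the list median of -0.56 was close to the -0.61 of all genes. The speckle gene with the smallest p was the scaffold gene Srrm2, at -1.34 (SE 0.26, adjusted p = 0.00083, edgeR). In Gli2FFGli3FF 1 rose and 3 fell (median -0.38, against -0.35 for all genes), and in Gli2FF 3 rose, among them Son, another scaffold gene, at 0.95 (SE 0.27, adjusted p = 0.0363, edgeR), all lost with wild type 4 and 5 as the only controls. Of 11 paraspeckle genes, 2 rose and 1 fell in each of Ctnnb1FF and Gli2FFGli3FF, with list medians of -0.10 and 0.30, where 19.9 and 17.2% of all genes were called. Sfpq, a core paraspeckle protein, rose in Ctnnb1FF (0.92, SE 0.24, adjusted p = 0.00834, edgeR), in Gli2FF (1.71, SE 0.26, adjusted p = 0.00035, edgeR) and in Gli2FFGli3FF (1.27, SE 0.22, adjusted p = 0.00033, edgeR). The Sfpq call in Gli2FFGli3FF was lost with the CT010467.1 share as a covariate. With wild type 1 to 3 as controls 1 speckle gene fell in Ctnnb1FF and 0 in Gli2FFGli3FF, and with wild type 4 and 5 it was 5 and 4. The paraspeckle counts in Ctnnb1FF were 3 higher and 0 lower with wild type 1 to 3, and 0 and 2 with 4 and 5.

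Other long noncoding RNAs did not all go the way of Malat1 and Neat1. Of 33 tested, 6 rose and 6 fell in Ctnnb1FF (median -0.30, against -0.61 for all genes). In Gli2FFGli3FF 7 rose and 5 fell (median -0.49, against -0.35 for all genes). Of all genes, 19.9 and 17.2% were called in these lines. The snoRNA host Snhg8 rose in Ctnnb1FF (log2 2.19, SE 0.24, adjusted p = 1.5e-06, edgeR) and in Gli2FFGli3FF (1.77, SE 0.22, adjusted p = 9.7e-06, edgeR). Snhg18, another host gene, rose in Ctnnb1FF (2.49, SE 0.33, adjusted p = 1.4e-05, edgeR), in Gli3FF (2.98, SE 0.36, adjusted p = 2.3e-05, edgeR) and in Gli2FFGli3FF (2.03, SE 0.31, adjusted p = 8.7e-05, edgeR). Meg3 fell in Gli2FFGli3FF (-3.60, SE 0.63, adjusted p = 0.00035, edgeR). With wild type 1 to 3 as controls the counts were 6 and 2 in each line, and with 4 and 5 they were 5 and 7 in Ctnnb1FF and 5 and 5 in Gli2FFGli3FF. With the CT010467.1 share as a covariate, 2 rose and 0 fell in Gli2FFGli3FF. After ligation 4 of 32 rose and 1 fell, near the 13.6% of all genes called, the rises including H19, an imprinted RNA of growth control (6.27, SE 0.29, adjusted p = 0.00051, edgeR), and Snhg6 (1.89, SE 0.25, adjusted p = 0.00807, edgeR). In SmoFF and SmoM2 edgeR called 0 of the 136 list entries tested, DESeq2 called 3 and 0, and 13 and 7 had an unadjusted p under 0.05.

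**Figure D5:**
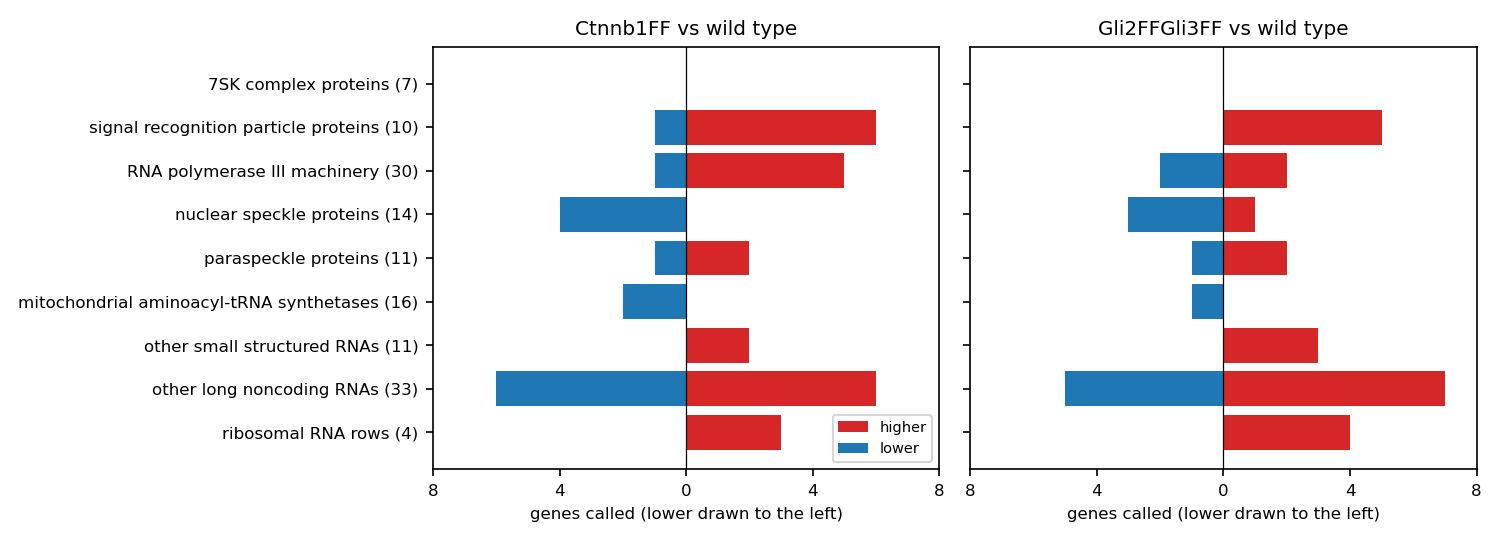
Number of genes called higher (right) and lower (left) than wild type by edgeR at an adjusted p under 0.05 in each list of companion genes, with the number tested in brackets, for Ctnnb1FF and Gli2FFGli3FF. The signal recognition particle list has 6 and 5 genes higher, while the 7SK complex list has 0 called in either.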

How the data were processed

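Per the labels' protocols, each library came from about 1000 sorted cells of 1 animal, with cDNA from a full-length Smart-seq3 variant that used Smart-seq2 oligonucleotides. The longest run of A was 3 bases in Rn7sk and 4 in Rn7s1 and Rn7s2, against 12 in Malat1, 7 in Neat1 and 6 in Lars2. Whether cDNA synthesis captured these RNAs equally, and equally in all libraries, was not tested. Levels here are therefore levels of counts. The authors deposited raw counts per gene. The submitters' processing notes name mm10. No source used here gives the aligner, counter, annotation or use of strand. Without strand, reads of overlapping genes cannot be told apart, and without molecular identifiers PCR copies count separately.

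Levels are CPM of the counts outside CT010467.1. Tests used edgeR 4.0.16 in R 4.3.3 (filterByExpr, TMM on all counts, glmQLFit, glmQLFTest, Benjamini-Hochberg adjusted p under 0.05), with 6 Gli1 libraries in 1 fit and 23 Pdgfra libraries in another. They were also tried on simulated data. Coordinates, lengths and sequences come from GENCODE M21 (mm10), and near copies from blastn 2.17.0 (at least 200 bases at 90% identity, or 50 bases for Lars2). Totals were 15021796 to 38301189 counts per library. No 2 libraries of a group held identical counts. The spread that p-values measure is that between animals together with their libraries.

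The members and gene lists were chosen with earlier results of these data known. Text names the 6 members, up to 4 called genes per list and comparison with the smallest p, the ribosomal RNA rows present, and the 3 genes most like each member by Pearson r of log2 CPM (prior count 2). Of the listed genes, 10 of 11 signal recognition, 33 of 35 long noncoding and 4 of 9 ribosomal RNA genes were in the tables, and all genes of the other lists. AA474408 falls outside this rule. Other settings were RLE scaling, DESeq2 1.42.0, no filter, removal of CT010467.1, the replicate block, fits of only the groups compared, the share as a covariate, wild type 1 to 3 or 4 and 5 as controls, and leaving out each library. Treating the wild type sets as separate groups in the within-group relation, and leaving out libraries there, were added after seeing the data. Some listed items are not reported here.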

Additional observations from a re-analysis of the deposited data

Results flagged for a closer look

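Dixon's criterion was applied to 21 sets of values, each from the SmoFF, Gli2FFGli3FF or wild type libraries (4 or 5 per group). In 4 of these sets a library lay far from the others of its group. The criterion flags about 1 in 20 independent sets by chance. The 21 sets reuse the same libraries and are not independent, so 4 of 21 cannot be judged against that rate. Rn7sk was at 98.3 CPM in SmoFF replicate 2, and at 59.7 to 64.5 CPM in the other SmoFF libraries. Rn7s1 was at 177 CPM in wild type replicate 4, and at 81.6 to 107 CPM in the other wild type libraries. Malat1 was at 367 CPM in Gli2FFGli3FF replicate 3, the library with the highest CT010467.1 share of its group, and at 704 to 732 CPM in the others. Lars2 was at 1888 CPM in wild type replicate 2, the wild type library with the highest share, and at 795 to 1039 CPM in the others.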

How the results depend on the processing

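For the 6 RNAs, every log2 difference from wild type over 2.5 in size kept its sign under all alternatives run, single libraries left out included, and the Neat1 difference in Gli2FFGli3FF, -1.85, turned to 1.04 with the share as a covariate. Numbers of genes called moved more. After ligation (2326) they were 3542 with DESeq2, 1493 with no filter and 428 with the replicate block. For SmoFF (377) they were 1105 with DESeq2, 913 with no filter, 207 with the covariate, 151 in a fit of the compared groups only, 1122 with wild type 1 to 3 and 19 with wild type 4 and 5. For SmoM2 (50) they were 276 with DESeq2, 394 with no filter, 266 in a fit of the compared groups, 19 with wild type 1 to 3 and 186 with 4 and 5. For Gli2FF (1423) they were 2660 with DESeq2, 729 with the covariate, 2343 in a fit of the compared groups and 200 with wild type 4 and 5. For Gli3FF (1085) they were 2372 with DESeq2, 1654 with no filter and 485 with wild type 4 and 5. For Gli2FFGli3FF (4183) they were 1145 with the covariate and 2213 with wild type 4 and 5. The cause was not tested.

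Leaving out single libraries gave 377 to 2383 calls after ligation, 121 to 685 for SmoFF, 17 to 36 for SmoM2, 3050 to 4594 for Ctnnb1FF, 179 to 1506 for Gli2FF, 319 to 976 for Gli3FF and 2960 to 3619 for Gli2FFGli3FF. The count moved by over 1.5 times without Ctnnb1FF replicate 2 (3050), Gli2FF replicate 1 (179) or 2 (588), or Gli3FF replicate 1 (319) or 2 (613). The ligation count did so without ligated replicate 1 (882), 2 (420) or 3 (377), or uninjured replicate 2 (1482). In Gli2FF it did so without wild type replicate 1 (895) or 2 (931). For SmoFF the count did so without any single SmoFF or wild type library, and for SmoM2 without any single SmoM2 or wild type library but wild type replicate 5.

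Malat1 after ligation was called by DESeq2 (-1.15). Rn7s1 after ligation was at -0.16 with the replicate block, -0.18 without uninjured replicate 3 and -0.81 without ligated replicate 2, and Rn7s2 at -0.06 and -0.67 without those libraries. Over all single libraries left out they ranged from -0.81 to 0.45 and from -0.67 to 0.53. The relation to the share, never past the threshold for the small RNAs, was -0.435 for Rn7sk (adjusted permutation p = 0.108), -0.202 for Rn7s1 and -0.123 for Rn7s2 on CPM of all counts, and 0.063 for Rn7sk with the wild type sets apart. Leaving out single libraries gave r of -0.347 to -0.0486 for Rn7sk, -0.119 to 0.210 for Rn7s1 and -0.0373 to 0.296 for Rn7s2. CT010467.1 in Gli2FFGli3FF was at -0.29 with its own share as a covariate, by construction of that fit. In Gli3FF, without replicate 2, Malat1 was at -4.44 and Neat1 at -3.22, and without replicate 1 Rn7s1 was at -3.80, Rn7s2 at -4.03 and Lars2 at 0.12.

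Replicate numbers did not pair the samples: deviations of same-numbered libraries had correlations of -0.030, -0.013 and -0.00085 after ligation and of -0.312 to 0.225 in the Pdgfra comparisons. The replicate block moved the ligation count to 428 and left the other counts within 1.5 times. The low number of 7SL counts in Gli1 libraries, 59 to 436 per gene, limits those values.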
